A study of Mus musculus with 14 samples.

Results

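The haemoglobin and erythroid genes described here are Hba-a1, Hba-a2, Hbb-bs, Hbb-bt and Alas2, chosen by gene name from a table of FPKM values (fragments scaled to gene length and library size) that holds 56748 genes. All 5 were found. They were measured in bulk mouse spinal cord RNA, selected for poly(A) tails, from 14 libraries in 4 groups. AstroCSF1KO cords carry, by the labels, a deletion of Csf1 in astrocytes, and were taken after spinal cord injury (AstroCSF1KO SCI, n = 4) or without injury (AstroCSF1KO uninjured, n = 3). Control cords were taken after spinal cord injury (Control SCI, n = 4) or without injury (Control uninjured, n = 3). Injured tissue was collected 7 days after injury and held the lesion; uninjured tissue came from the matching region. The driver of the deletion, the strain, the age and the sex of the mice, the kind of injury, and whether blood was flushed from the vessels are not stated by the labels. Nothing in the labels says that the libraries came from separate animals, so p-values measure the spread between these libraries.

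Haemoglobin is the oxygen carrier of red blood cells and is built from alpha chains and beta chains, each holding a haem group. Its genes and the erythroid enzyme of haem synthesis are read at very high levels in red cell precursors of the marrow and spleen, and reticulocytes, the young red cells that have lost their nucleus, still carry this RNA in the blood. In spinal cord tissue haemoglobin RNA is therefore widely used as a sign of blood, although low haemoglobin gene expression has also been described in neurons and glia. A bulk library cannot tell more cells of a type from more RNA per cell.

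The adult alpha chain is encoded by Hba-a1 (ENSMUSG00000069919, chromosome 11, 32233511 to 32234465 of mm39, plus strand) and by its copy Hba-a2 (ENSMUSG00000069917, chromosome 11, 32246489 to 32247298, plus strand). The adult beta chain is encoded by Hbb-bs (ENSMUSG00000052305, chromosome 7, 103475741 to 103477303, minus strand) and by Hbb-bt (ENSMUSG00000073940, chromosome 7, 103461731 to 103463203, minus strand). Alas2 (ENSMUSG00000025270, chromosome X, 149330371 to 149353634, plus strand) encodes the erythroid form of 5-aminolevulinate synthase, which makes the first precursor of haem. The sequences just before the starts of these genes are shown because the 5 genes moved together across the libraries and because the copies resemble each other. They are RefSeq sequences of GRCm38.p6, not of mm39, and each is the 120 bases before the RefSeq start of transcription, in the direction of the gene. The mm39 spans given above come from the deposited values and need not begin at these RefSeq starts, so a printed stretch may lie within a span. Capitals mark matches, on either strand, to the CACCC box bound by KLF1 and related factors, to CCAAT and to TATAAA, and to the sequences of GATA factors, which are AGATAA and its variant AGATAG as well as TGATAA and its variant TGATAG. Overlapping matches run together.
Hba-a1, chr11:32283552-32283671, plus strand: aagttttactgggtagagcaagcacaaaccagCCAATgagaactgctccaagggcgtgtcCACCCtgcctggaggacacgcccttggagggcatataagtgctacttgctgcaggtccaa
Hbb-bs, chr7:103827929-103828048, minus strand: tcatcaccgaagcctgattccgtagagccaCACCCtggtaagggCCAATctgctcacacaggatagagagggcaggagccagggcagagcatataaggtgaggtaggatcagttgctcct
Hbb-bt, chr7:103813924-103814043, minus strand: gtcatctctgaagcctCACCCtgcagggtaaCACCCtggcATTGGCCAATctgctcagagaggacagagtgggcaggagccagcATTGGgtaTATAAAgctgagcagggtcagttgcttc
Alas2, chrX:150547297-150547416, plus strand: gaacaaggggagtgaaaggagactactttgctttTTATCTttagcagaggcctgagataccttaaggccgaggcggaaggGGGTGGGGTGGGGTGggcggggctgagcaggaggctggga

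Hba-a2 is left out of these lines because its promoter was identical to that of Hba-a1 at 297 of 297 aligned bases. The beta promoters matched at 88 of 119 aligned bases. CACCC stood in the 120 bases of all 5 genes, against 31.7% of the 32851 RefSeq promoters of the same length, and CCAAT in those of the 4 globin genes, against 21.3%. Hbb-bt alone held TATAAA there, against 6.34% of promoters, and Alas2 alone held one of the GATA sequences, against 12.8%. In Alas2 it began 86 bases before the start. In the longer window of 250 bases before to 50 after the start, Hba-a1, Hba-a2 and Hbb-bs also held a GATA sequence, beginning 183, 186 and 210 bases before the start, against 29.8% of promoters. These matches are letters in a window and not measured binding.

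The copies are also alike within their transcripts, which bears on how reads were divided between them. In GENCODE transcripts of GRCm38, Hba-a1 and Hba-a2 were identical at 537 of 538 aligned bases (99.8%), and Hbb-bs and Hbb-bt at 580 of 626 (92.7%). Single stretches of 150 bases, about the length of 1 read, were compared, although reads were paired and pairs were not examined together. Of all such stretches, 48.4% in Hba-a1 and 65.7% in Hba-a2 occurred unchanged in the other copy. The shares were 58.7% in Hbb-bs and 50.7% in Hbb-bt, and 0% in Alas2. Changes of the summed copies are therefore also given.

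Recovered whole reads came to between 13263610 and 21969581 per library. All 16 markers of neurons, oligodendrocytes, astrocytes and microglia that were examined reached 1 FPKM in all 14 libraries. Csf1, the gene named in the labels, stood at 19.9, 16.4, 18.6 and 19.2 FPKM in AstroCSF1KO SCI and at 7.95, 17.6, 18.3 and 10.4 FPKM in Control SCI, so that it was not clearly lower with the AstroCSF1KO label. It stood at 8.23, 10.3 and 11.02 FPKM in AstroCSF1KO uninjured and at 4.24, 11.9 and 12.2 FPKM in Control uninjured, where the low value is replicate 1, a library that stands apart as described next, and the other 2 controls lie above all 3 AstroCSF1KO libraries. Those values cover the whole gene in all cells, so every genotype comparison here is one between labels. In 3 control libraries (Control SCI replicates 1 and 4, Control uninjured replicate 1), the share of detected genes that had only 1 read was 1.45 to 2.06%, against 8.44 to 11.6% in the other 11. Mitochondrial reads made up 6.73 to 13.9% in those 3 and 3.38 to 5.78% in the other 11. In 4 libraries labelled AstroCSF1KO (SCI replicates 2, 3 and 4, uninjured replicate 3), rRNA genes took 3.27 to 4.47% of reads, against 0.631 to 2.52% in the other 10.

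All 5 genes were higher in injured than in uninjured cords, in libraries of either label. Hba-a1 stood at 312, 182, 121 and 135 FPKM in AstroCSF1KO SCI and at 738, 1918, 198.5 and 58.6 FPKM in Control SCI. It stood at 13.8, 20.7 and 26.8 FPKM in AstroCSF1KO uninjured and at 10.9, 19.5 and 8.64 FPKM in Control uninjured. The lowest injured library lay above the highest uninjured one, and Control SCI replicate 2 was the highest of all, where Hba-a1 had rank 9 among the 15155 genes kept for testing. Within a label, all injured libraries lay above all uninjured ones for 22.3% of those genes in AstroCSF1KO cords and 7.79% in control cords. The share over both labels together was not computed. A gene was kept if it reached 1 FPKM in at least 3 libraries, and all 5 genes were kept.

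Hba-a2 stood at 52.5, 32.6, 12.6 and 17.4 FPKM in AstroCSF1KO SCI and at 308.8, 139, 26.2 and 48.6 FPKM in Control SCI. The uninjured values were 1.82, 3.14 and 3.32 FPKM in AstroCSF1KO uninjured and 9.71, 2.25 and 1.25 FPKM in Control uninjured. Injured and uninjured cords did not overlap. Within a label, the same separation was seen for 22.3% of all genes kept in AstroCSF1KO cords and 7.79% in control cords. The highest uninjured value belonged to Control uninjured replicate 1, 1 of the 3 libraries that stood apart.

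Hbb-bs, the more abundant beta gene, stood at 309.4, 280.2, 158 and 149 FPKM in AstroCSF1KO SCI and at 831, 1570.0, 209.7 and 46.5 FPKM in Control SCI. It stood at 13.2, 18.2 and 28.0 FPKM in AstroCSF1KO uninjured and at 23.9, 14.7 and 13.9 FPKM in Control uninjured. Control SCI held both the highest and the lowest injured value. Hbb-bt, the less abundant beta gene, stood at 54.8, 34.7, 21.8 and 22.4 FPKM in AstroCSF1KO SCI and at 110.5, 317, 31.8 and 7.96 FPKM in Control SCI. It stood at 2.42, 2.43 and 3.29 FPKM in AstroCSF1KO uninjured and at 0, 4.14 and 3.28 FPKM in Control uninjured. The value of 0 was in Control uninjured replicate 1, which had 221 reads on Hbb-bs, and a count of 0 allows up to 3 reads, or 0.354 FPKM.

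Alas2 was the least abundant of the 5, with 9 to 1923 reads per library. It stood at 5.40, 3.99, 2.93 and 2.76 FPKM in AstroCSF1KO SCI and at 41.9, 34.4, 3.83 and 3.87 FPKM in Control SCI. It stood at 0.344, 0.467 and 0.899 FPKM in AstroCSF1KO uninjured and at 0.311, 0.545 and 0.347 FPKM in Control uninjured. Control SCI split into a high pair of libraries and a pair within the range of AstroCSF1KO SCI, while injured and uninjured cords again did not overlap. Within a label, this held for 22.3% of all genes kept in AstroCSF1KO cords and 7.79% in control cords.

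**Figure D1:**
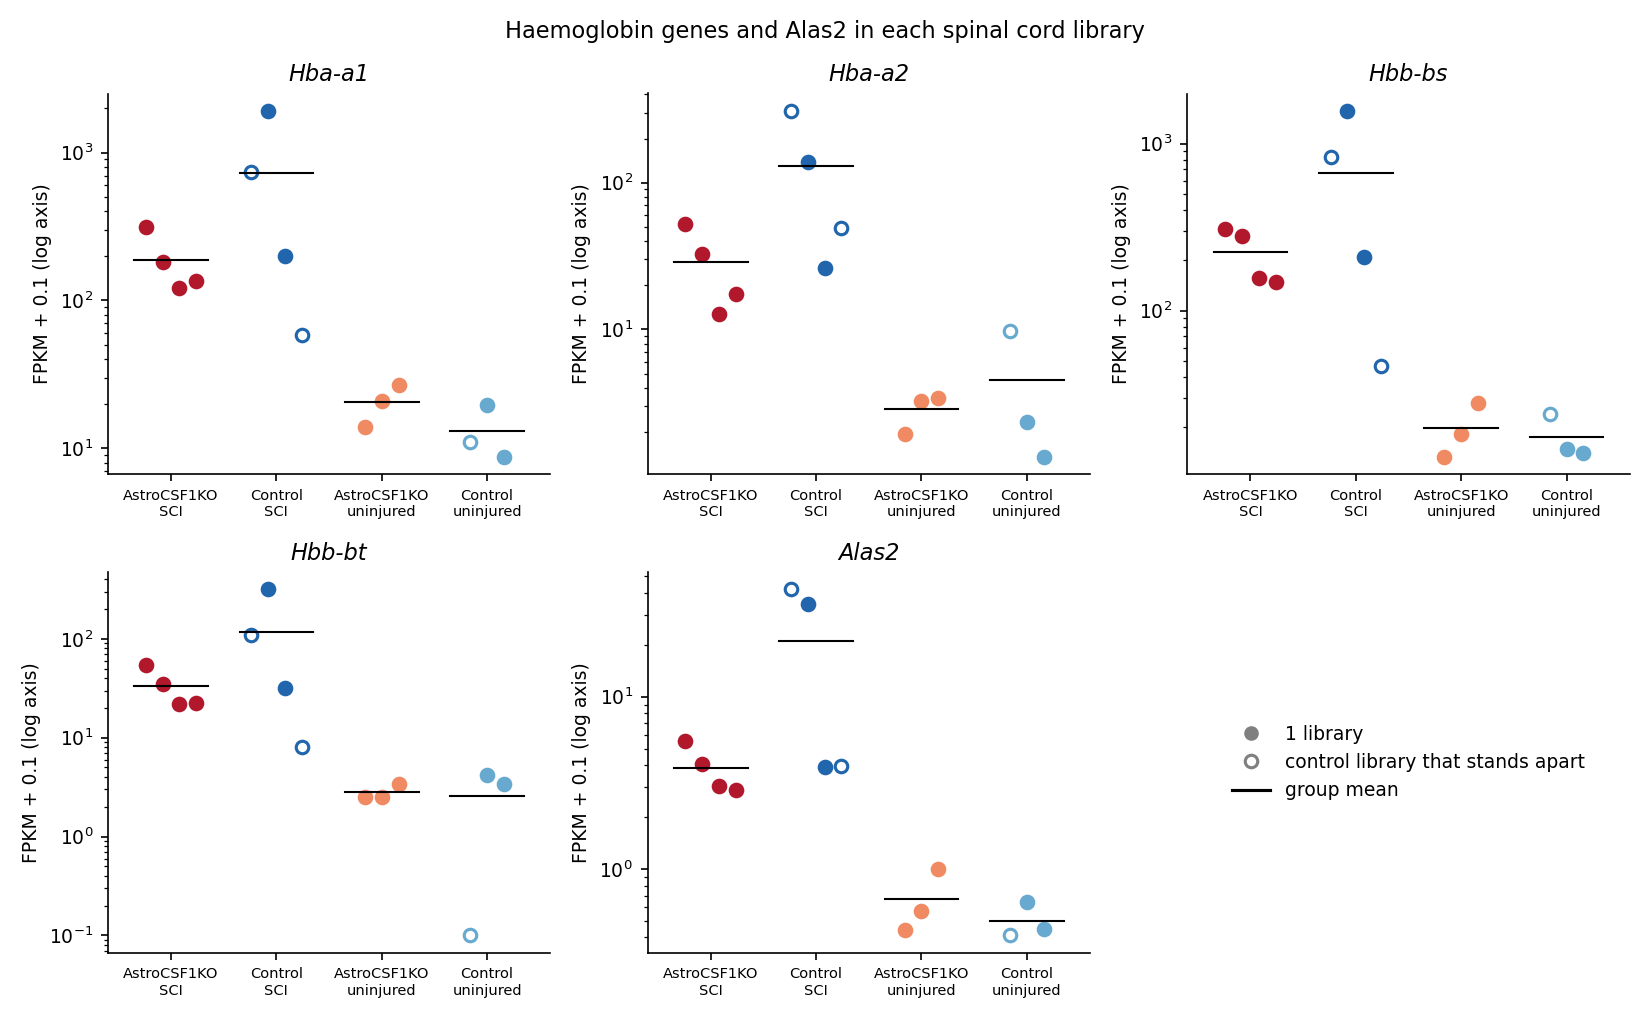
FPKM plus 0.1 (log axis) of each of the 5 genes in each of the 14 libraries, with injured groups left of uninjured groups and open circles for the 3 control libraries that stood apart. Every injured library lies above every uninjured library of its genotype label. Such a separation held for 22.3% of all genes kept in AstroCSF1KO cords and 7.79% in control cords. The Control SCI libraries are spread widest, from 58.6 to 1918 FPKM for Hba-a1.

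In the libraries labelled AstroCSF1KO, all 5 genes rose after injury. On the log2(FPKM + 1) scale, the change, injured minus uninjured, was 3.08 ± 0.34 (SE, adjusted p = 0.000242) for Hba-a1 and 2.81 ± 0.44 (adjusted p = 0.0013) for Hba-a2, by limma with adjustment over all genes kept. It was 3.42 ± 0.33 for Hbb-bs and 3.12 ± 0.30 for Hbb-bt (limma adjusted p = 0.000129 each), and 1.59 ± 0.20 for Alas2 (limma adjusted p = 0.00052). Group means were 9.18-fold higher for Hba-a1, 10.4-fold for Hba-a2, 11.3-fold for Hbb-bs, 12.3-fold for Hbb-bt and 6.62-fold for Alas2. The 5 of 5 called stand against 45.8% of all genes called in this comparison, 19.7% higher and 26.1% lower. For each gene the 4 injured libraries lay above all 3 uninjured ones, as did those of 22.3% of all genes; the exact two-sided permutation p was 0.0571, the smallest this design allows. With the copies summed the change was 3.10 ± 0.35 for alpha and 3.43 ± 0.32 for beta RNA (SE, limma adjusted p = 0.000282 and 0.000119). All 5 calls held without the 4 libraries rich in rRNA reads, with changes of 4.23 for Hbb-bs and 2.19 for Alas2, in a fit of 1 injured and 2 uninjured libraries in which the lone injured library is assumed to vary like the uninjured ones.

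In the control libraries the changes had larger estimates and larger errors, and no gene of the 5 passed the test. The change was 4.76 ± 1.10 (SE, adjusted p = 0.122) for Hba-a1, 4.35 ± 0.91 (adjusted p = 0.0905) for Hba-a2 and 4.24 ± 1.12 (adjusted p = 0.183) for Hbb-bs, by limma. It was 4.34 ± 1.21 for Hbb-bt (limma adjusted p = 0.207) and 3.30 ± 0.86 for Alas2 (limma adjusted p = 0.181). With the copies summed it was 4.77 ± 0.998 for alpha and 4.24 ± 1.11 for beta RNA (SE, limma adjusted p = 0.0911 and 0.181). Mean FPKM was 55.8-fold higher for Hba-a1, 29.7-fold for Hba-a2, 38.0-fold for Hbb-bs, 47.2-fold for Hbb-bt and 52.4-fold for Alas2. The 0 of 5 called stand against 1.04% of all genes called (1.03% higher and 0.0132% lower), while all 5 had an unadjusted p under 0.05, as did 1456 of the 15155 genes; limma's voom on the recovered reads also called 0 of 5. The 4 injured libraries lay above all 3 uninjured ones for each of the 5 genes, as for 7.79% of all genes, and the exact two-sided permutation p was again 0.0571, its smallest possible value. Without the 3 libraries that stood apart, 4 of 5 were called, with 5.46 for Hba-a1, 4.51 for Hba-a2, 5.24 for Hbb-bs and 4.44 for Hbb-bt, while Alas2 had 3.18 (limma adjusted p = 0.0727). With replicate number as a block, a fit to whose changes Control SCI replicate 4 does not contribute because it has no uninjured partner, all 5 were called, at 3.80 for Alas2 to 5.62 for Hba-a1 (limma adjusted p = 0.00901 to 0.0427). Leaving out that library without a block gave the same changes and 2 of 5 called. Of the 15155 genes, 3624 were called without the 3 libraries that stood apart, 1030 with the block and 125 without replicate 4, against 158 in the main fit.

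Over both genotypes together, all 5 genes rose after injury. The mean change, injured minus uninjured, was 3.92 ± 0.63 for Hba-a1, 3.58 ± 0.55 for Hba-a2, 3.83 ± 0.63 for Hbb-bs, 3.73 ± 0.68 for Hbb-bt and 2.44 ± 0.48 for Alas2 (SE, limma adjusted p = 0.000614 to 0.00348). In this comparison 16.6% of all genes were called, 9.94% higher and 6.66% lower. With injury labels permuted within genotype, each gene reached the smallest exact two-sided p possible, 0.00163, as would any gene whose injured libraries lay above the uninjured ones within both labels. Without the 4 libraries rich in rRNA reads the changes were as large, at 2.74 for Alas2 and 4.23 for Hbb-bs, but only Hba-a1 and Hba-a2 were called, and the limma adjusted p was 0.0592 for Hbb-bs, 0.0799 for Hbb-bt and 0.105 for Alas2.

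**Figure D2:**
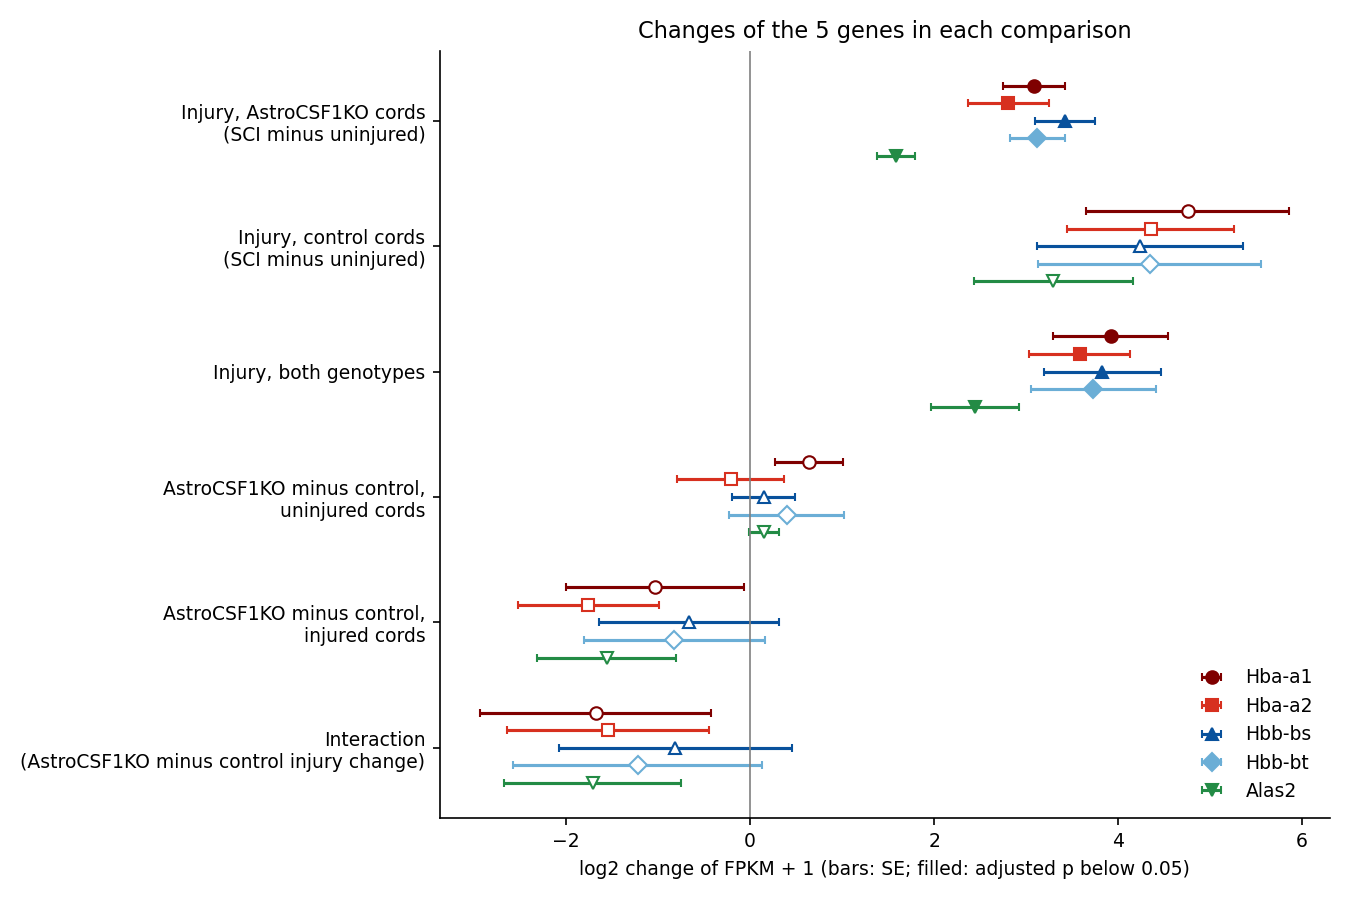
The log2 change of FPKM + 1 of each gene (x axis, bars are SE, filled symbols have an adjusted p under 0.05) in the 6 comparisons listed on the y axis. Injury changes lie between 1.59 and 4.76, and the genotype and interaction values in injured cords are negative with an SE of 0.76 to 1.36.

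Between the labelled genotypes no gene of the 5 passed the test in either state. In injured cords, mean levels were 188 FPKM for Hba-a1 in AstroCSF1KO SCI and 728 FPKM in Control SCI, and 3.77 and 21 FPKM for Alas2. The change, AstroCSF1KO minus control, was -1.04 ± 0.97 for Hba-a1, -1.76 ± 0.77 for Hba-a2, -0.66 ± 0.98 for Hbb-bs, -0.82 ± 0.98 for Hbb-bt and -1.56 ± 0.76 for Alas2 (SE, limma adjusted p = 0.477 to 0.659). These values rest in part on Control SCI replicate 2: without it they were -0.23 for Hba-a1, -1.53 for Hba-a2, 0.07 for Hbb-bs, 0.0048 for Hbb-bt and -1.10 for Alas2, so that those of both beta genes turned sign. Without Control SCI replicate 4, which stood apart, they were -1.90, -2.03, -1.61, -1.71 and -2.06 in the same order of genes. Without both Control SCI libraries that stood apart, replicates 1 and 4, they were -1.82, -1.26, -1.43, -1.67 and -1.49. In both of these fits 0 of the 5 were called. Without the 4 libraries rich in rRNA reads they were -0.20, -0.71, -0.12, -0.03 and -1.10 in the same order of genes. That fit kept only replicate 1 of AstroCSF1KO SCI, the highest of its group for each of the 5 genes, and the cause of the shift was not tested. All AstroCSF1KO SCI values of Hba-a1, Hbb-bs and Hbb-bt lay between the lowest and the highest Control SCI value. For Hba-a2 and Alas2, 2 of the 4 AstroCSF1KO SCI libraries lay below every Control SCI library. The exact two-sided permutation p was 0.371 for Hba-a1, 0.143 for Hba-a2, 0.6 for Hbb-bs, 0.514 for Hbb-bt and 0.229 for Alas2, where 0.0286 is the smallest possible. Of all genes 0 were called by limma, with 497 at an unadjusted p under 0.05, Hba-a2 alone of the 5 among them; voom also called 0.

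In uninjured cords the genotype difference, AstroCSF1KO minus control, ran from -0.21 ± 0.59 for Hba-a2 to 0.64 ± 0.37 for Hba-a1 (SE). Without Control uninjured replicate 1, which stood apart, it was 0.45 for Hba-a2 and -0.35 for Hbb-bt, and with the alpha copies summed it was 0.42; without AstroCSF1KO uninjured replicate 3, rich in rRNA reads, it was -0.12 for Hbb-bs. Of all genes 0 were called by limma, with 331 at an unadjusted p under 0.05 and none of the 5 among them, and voom called 0. The exact two-sided permutation p ran from 0.2 to 0.9, and this design cannot go below 0.1. Summed over the 4 globin genes, levels were 31.2 to 61.4 FPKM in AstroCSF1KO uninjured and 27.1 to 44.5 FPKM in Control uninjured.

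The injury responses of the 2 genotype labels were also compared directly. The interaction, the injury change in AstroCSF1KO minus that in controls, was -1.68 ± 1.26 for Hba-a1, -1.55 ± 1.10 for Hba-a2, -0.81 ± 1.27 for Hbb-bs, -1.22 ± 1.36 for Hbb-bt and -1.71 ± 0.96 for Alas2 (SE, limma adjusted p = 1 for each). Of all genes 0 were called, with 91 at an unadjusted p under 0.05 and none of the 5 among them. The SE exceeded the size of the difference for Hbb-bs and Hbb-bt and was below it for Hba-a1, Hba-a2 and Alas2. Without the 3 control libraries that stood apart, the values were -2.38, -1.70, -1.82, -1.32 and -1.59 in the same order, with 0 of the 5 called. Without the 4 libraries rich in rRNA reads, which leaves 1 AstroCSF1KO SCI library, they were -0.63, -0.39, -0.002, -0.32 and -1.11. The cause of these shifts was not tested. Neither an equal nor a smaller response in AstroCSF1KO was shown.

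The libraries of Control SCI differed widely among themselves. The 4 globin genes summed to 474 ± 197 FPKM in AstroCSF1KO SCI and 1640.0 ± 1731 FPKM in Control SCI (SD, n = 4 each), and to 45.7 ± 15.1 FPKM in AstroCSF1KO uninjured and 37.4 ± 9.17 FPKM in Control uninjured (SD, n = 3 each). The highest library of a group exceeded its lowest 2.33-fold in AstroCSF1KO SCI and 24.4-fold in Control SCI, and 1.97-fold in AstroCSF1KO uninjured and 1.65-fold in Control uninjured. The lowest Control SCI library, at 162 FPKM, was replicate 4, and the highest, at 3944 FPKM, was replicate 2; only replicate 4 is among the libraries that stood apart. By group mean, the order of the sum was Control SCI, AstroCSF1KO SCI, AstroCSF1KO uninjured and Control uninjured, and the neighbours within a state overlapped. As a share of all recovered reads, the 4 genes took 0.0251 to 0.0595% in AstroCSF1KO SCI and 0.0124 to 0.326% in Control SCI, and 0.00246 to 0.00468% in AstroCSF1KO uninjured and 0.0021 to 0.00315% in Control uninjured.

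Summed alpha and summed beta FPKM were of the same order in every library, with a ratio of 0.577 to 1.97 over all 14. The ratio of summed alpha FPKM to summed beta FPKM was 0.681 to 1.002 in AstroCSF1KO SCI and 0.931 to 1.97 in Control SCI, and 0.962 to 1.16 in AstroCSF1KO uninjured and 0.577 to 1.16 in Control uninjured. The ratio of 1.97 belonged to Control SCI replicate 4. Hbb-bt made up 11.03 to 15.1% of the beta FPKM in AstroCSF1KO SCI and 11.7 to 16.8% in Control SCI, and 10.5 to 15.5% in AstroCSF1KO uninjured and 0 to 22.0% in Control uninjured.

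The split between the near-identical alpha copies differed by library. Hba-a2 made up 29.5% of the alpha FPKM in Control SCI replicate 1, 45.3% in Control SCI replicate 4 and 47.0% in Control uninjured replicate 1. In the other 11 libraries it made up 6.77 to 15.2%, whether injured or not and with either label. The 3 high libraries are the same 3 that stood apart in reads per gene and mitochondrial reads; the part of those features in the split was not tested. With the copies summed before the fit, the genotype difference of the alpha RNA in injured cords was -1.25, against -1.76 for Hba-a2 alone.

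Alas2 was set against the globin RNA of the same library. It stood at 7.41 to 9.36 FPKM per 1000 FPKM of globin RNA in AstroCSF1KO SCI and 8.21 to 23.9 in Control SCI, and at 10.5 to 14.6 in AstroCSF1KO uninjured and 6.98 to 13.4 in Control uninjured. The values of 21.1 and 23.9 were in Control SCI replicates 1 and 4, and 6.98 was in Control uninjured replicate 1. The other 11 libraries lay between 7.41 and 14.6, so that the libraries that stood apart held both ends of the range. Control SCI replicate 4 thus had the fewest globin reads of the injured libraries and about the same Alas2 level as replicate 3.

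**Figure D3:**
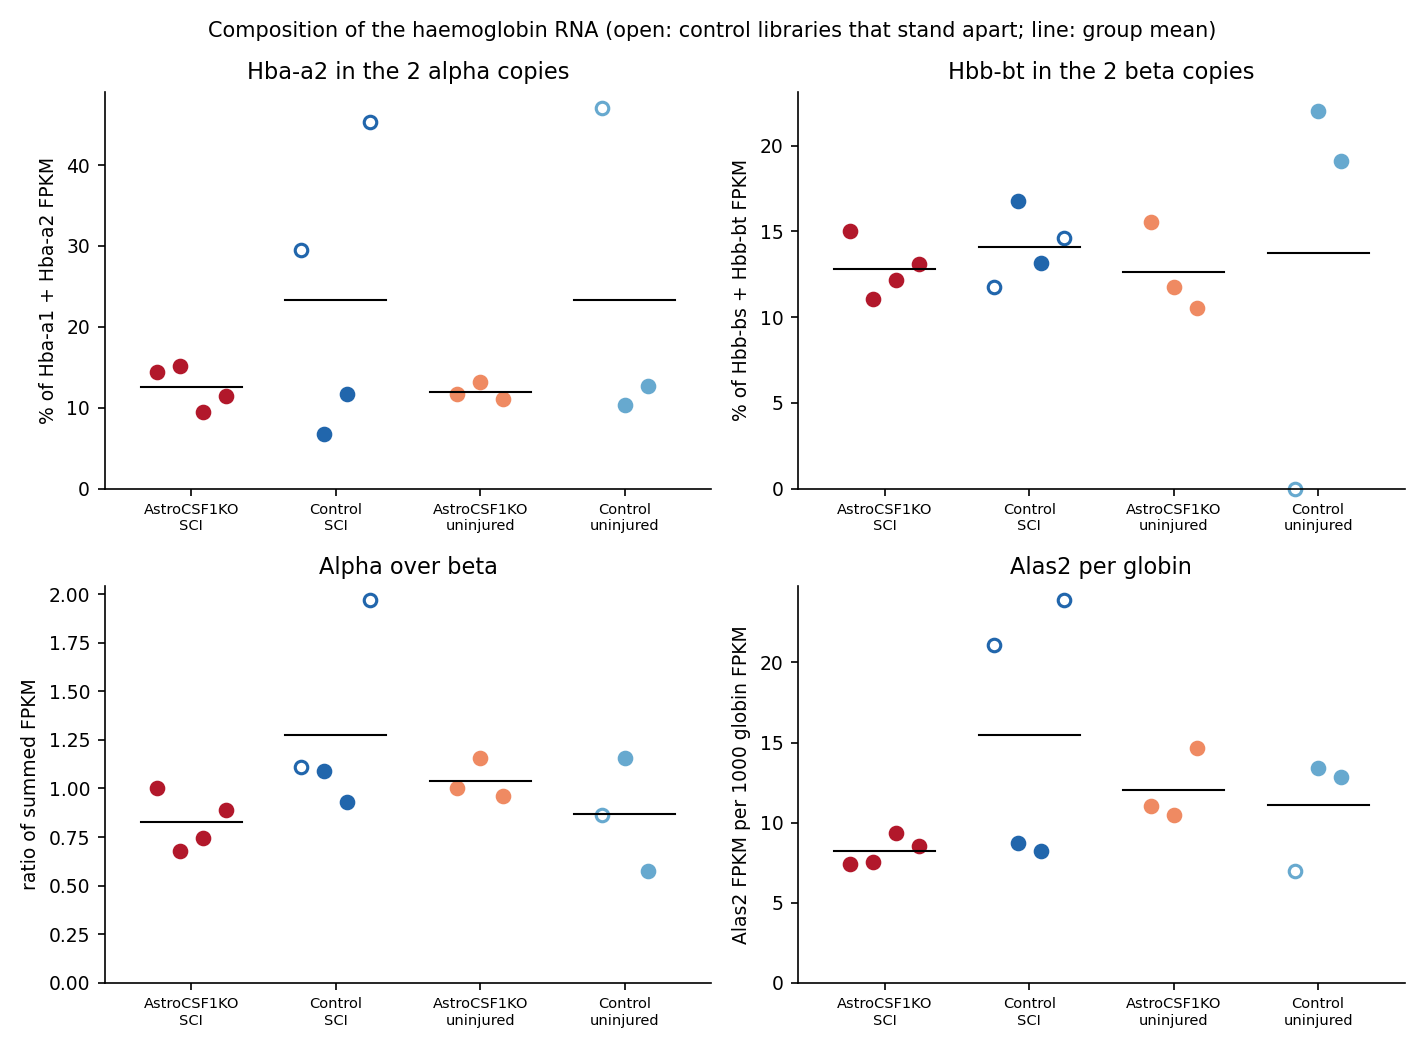
Share of Hba-a2 in alpha FPKM and of Hbb-bt in beta FPKM (%), ratio of alpha to beta FPKM, and Alas2 FPKM per 1000 globin FPKM in each library, with injured groups on the left, lines at group means and open circles for the 3 control libraries that stood apart. Hba-a2 makes up 29.5 to 47.0% of alpha FPKM in those 3 and 6.77 to 15.2% in the other 11.

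Across the 14 libraries the 5 genes varied together. The correlation of log2(FPKM + 1) between any pair of them was 0.827 to 0.984, the highest for Hba-a1 with Hbb-bs; the points share the injury difference. For deviations from the group means it was 0.367 (Hba-a2 with Hbb-bt) to 0.953 (Hba-a1 with Hbb-bs). Alas2 had 0.884 with Hba-a1 and 0.779 with Hba-a2 in this measure.

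**Figure D4:**
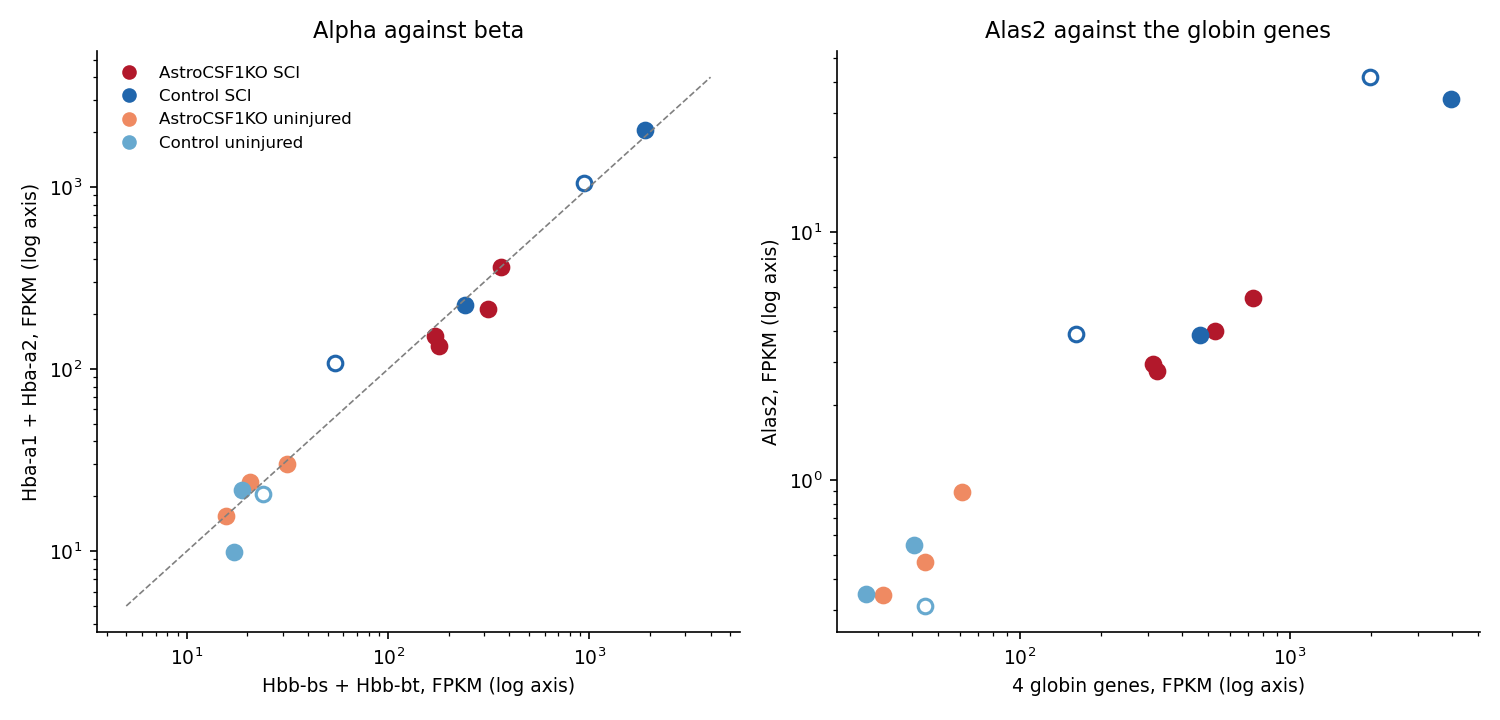
Left, summed alpha FPKM against summed beta FPKM, with the dashed line at equal values; right, Alas2 FPKM against the summed FPKM of the 4 globin genes; all axes are logarithmic, each circle is 1 library and open circles are the 3 control libraries that stood apart. Libraries follow 1 rising band from uninjured to injured cords, and on the right Control SCI replicates 1 and 4 lie above it, with 21.1 and 23.9 FPKM of Alas2 per 1000 FPKM of globin RNA.

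Genes whose levels most resembled the summed globin RNA over the 14 libraries were picked by Pearson r alone. They were Ube2l6 (r = 0.947), Isg20 (0.921), Tent5c (0.919), Il10rb (0.911), Cd5l (0.901), Ccnb2 (0.9), Lat2 (0.9), Tmem273 (0.896), Rsad2 (0.892) and Cyp4f18 (0.892). Such a ranking also gathers any gene that was higher after injury, such as Cd5l, a secreted macrophage protein, with a mean of 8.49 FPKM in AstroCSF1KO SCI and 6.33 FPKM in Control SCI, and 0.0408 FPKM in AstroCSF1KO uninjured and 0.00804 FPKM in Control uninjured. By deviations from the group means, which leave the injury difference out, the order was Isg20 (r = 0.913), Bpgm (0.896), Tent5c (0.88), Stard3nl (0.862), Gm49785 (0.855), Rpap3 (0.845), Rnf113a2 (0.831), Nms (0.828), Gm5846 (0.827) and Wdr73 (0.822). Bpgm encodes bisphosphoglycerate mutase, which makes the red cell's regulator of oxygen release, Tent5c a poly(A) polymerase and Isg20 an exonuclease. Isg20 and Tent5c were in both rankings.

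No other globin gene passed the test after injury over both genotypes. Of 11 listed, 9 were in the table, 2 of them (Hbb-bh1 and Hbb-bh2) with 0 reads in all libraries, and the embryonic genes Hba-x and Hbb-y had 1 and 5 reads over all 14. Of the 4 kept, 0 were called over both genotypes, against 16.6% of all genes, and 2 were called lower in the libraries labelled AstroCSF1KO alone. Neuroglobin (Ngb), a neuronal oxygen-binding protein, had a change of -0.43 ± 0.40 and cytoglobin (Cygb) of -0.73 ± 0.45 (SE, limma adjusted p = 0.551 and 0.33). Ngb and Cygb are the 2 called lower in the libraries labelled AstroCSF1KO alone, at -0.70 ± 0.14 and -0.86 ± 0.09 (SE, limma adjusted p = 0.00453 and 0.000184). In that comparison 26.1% of all genes were called lower.

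No other gene of haem synthesis passed the test over both genotypes. All 12 listed genes were kept and 0 were called after injury over both genotypes, against 16.6% of all genes. Their median change was -0.10, against -0.04 for all genes. Coproporphyrinogen oxidase (Cpox), a late enzyme of the pathway, had -0.27 ± 0.21 and Tmem14c, a mitochondrial porphyrin carrier, 0.25 ± 0.43 (SE, limma adjusted p = 0.455 and 0.781). Alas1, the form of the first enzyme used in most tissues and chosen here after its values were seen, averaged 9.52 FPKM in AstroCSF1KO SCI and 7.67 FPKM in Control SCI, and 9.71 FPKM in AstroCSF1KO uninjured and 8.25 FPKM in Control uninjured. Its change was -0.07 ± 0.13 (SE, limma adjusted p = 0.808). In the libraries labelled AstroCSF1KO alone, 2 of the 12 were called higher and 5 lower, against 19.7% and 26.1% of all genes. Cpox was among the 5 lower there, at -0.35 ± 0.08 (SE, limma adjusted p = 0.00962).

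Of the transcription factors of red cell precursors, 4 stayed below 1 FPKM in all 14 libraries and 5 exceeded it in at least 1. Of 9 listed transcription factors 5 were kept, and 1 was called higher over both genotypes: Lmo2, also active in blood vessels, at 0.80 ± 0.12 (SE, limma adjusted p = 0.000505). In that comparison 9.94% of all genes were called higher. The kept factors Tal1, Zfpm1, Ldb1 and Bcl11a, which other cells also express, had medians of 1.17, 8.91, 16.5 and 1.02 FPKM over the libraries and 0 of these 4 were called. Gata1, Klf1, Nfe2 and Gfi1b were not kept, with highest values of 0.161, 0.56, 0.244 and 0.368 FPKM, and Klf1 had reads in all 14 libraries; these 8 factors were named after their values were seen. Gata1 stood at 0 to 0.0442 FPKM in AstroCSF1KO SCI and 0 to 0.161 FPKM in Control SCI, at 0 in all AstroCSF1KO uninjured libraries and at 0 to 0.0403 FPKM in Control uninjured. Its reads came to 25 over all 14 libraries.

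Genes of the red cell membrane moved in both directions. Of 17 listed, 8 were kept, with 2 called higher and 3 lower over both genotypes, against 9.94% and 6.66% of all genes. Higher were the glycophorin C gene Gypc (0.71 ± 0.16) and the water channel gene Aqp1 (1.44 ± 0.39), and lower were the ankyrin gene Ank1 (-1.01 ± 0.19), the beta-spectrin gene Sptb (-0.88 ± 0.24) and the adducin gene Add2 (-0.59 ± 0.18; SE, limma adjusted p = 0.00253 to 0.0388). Ank1, Sptb and Add2 are also expressed in neurons. Which cells lay behind the higher or the lower values was not tested for any of these genes, Gypc and Aqp1 included. Add2 was named after its values were seen, to complete the count of 5 called genes.

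The anion exchanger gene Slc4a1, confined to red cells among blood cells and chosen here after its values were seen, was not kept. Slc4a1 stood at 0.496, 0.527, 0.242 and 0.21 FPKM in AstroCSF1KO SCI and at 0.666, 2.26, 0.61 and 0.151 FPKM in Control SCI. Its uninjured values were 0.0796, 0.0997 and 0.0421 FPKM in AstroCSF1KO uninjured and 0.153, 0.188 and 0.221 FPKM in Control uninjured. It was highest in Control SCI replicate 2, and replicate 4 of each injured group lay below the highest uninjured value. Summed over 16 genes not kept among the transcription factor, membrane and maturation lists, levels were 1.71 to 2.54 FPKM in AstroCSF1KO SCI and 1.73 to 7.02 FPKM in Control SCI, and 1.45 to 1.56 FPKM in AstroCSF1KO uninjured and 1.2 to 2.23 FPKM in Control uninjured. Of these 16, 7 were highest in Control SCI replicate 2 and 5 in Control SCI replicate 1, the pair of libraries with the most globin RNA.

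Of the genes of red cell maturation, 13 of 14 listed were in the table and 9 were kept. Over both genotypes 1 was called higher and 1 lower, against 9.94% and 6.66% of all genes. Isg20 rose (0.93 ± 0.27, limma adjusted p = 0.0313) and the transferrin receptor gene Tfrc, which brings iron into precursors and many other cells, fell (-0.53 ± 0.16, limma adjusted p = 0.04; SE). Isg20 is also induced by interferon.

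Of 13 listed genes that clear haemoglobin and haem, 12 were kept, with 2 called higher and 0 lower over both genotypes. In that comparison 9.94% of all genes were called higher and 6.66% lower. The median change of the 12 was 0.27, against -0.04 for all genes. Haem oxygenase 1 (Hmox1), which opens the haem ring, averaged 18.5 FPKM in AstroCSF1KO SCI and 13.7 FPKM in Control SCI, and 5.06 FPKM in AstroCSF1KO uninjured and 3.23 FPKM in Control uninjured. It rose by 1.75 ± 0.29 (SE, limma adjusted p = 0.00112). Haptoglobin (Hp), which binds free haemoglobin, rose by 0.47 ± 0.14 (SE, limma adjusted p = 0.042). Hp was low, with 287 reads over all libraries and at most 1.55 FPKM. It was not called in AstroCSF1KO cords or in control cords alone (limma adjusted p = 0.313 and 0.331). The ferritin light chain gene Ftl1, an iron store chosen here after its values were seen, had 1.91 ± 0.65 (SE, limma adjusted p = 0.0658) over both genotypes and rose by 1.97 ± 0.19 (limma adjusted p = 0.000122) in the libraries labelled AstroCSF1KO.

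Markers of other blood cells and of vessels were set beside these changes. For injury over both genotypes, 9.94% of all genes were called higher and 6.66% lower. Of 9 platelet genes 2 were kept: Pf4, a platelet chemokine also made by some macrophages, rose by 2.27 ± 0.25 and Gp5, a platelet surface glycoprotein, fell (-0.54 ± 0.15; SE, limma adjusted p = 4.99e-05 and 0.0246). Of 10 neutrophil genes 8 were kept, with 2 called higher: Csf3r at 2.02 ± 0.23 and Mmp8 at 0.66 ± 0.20 (SE, limma adjusted p = 6.13e-05 and 0.044). S100a8, S100a9, Ngp, Retnlg, Ltf and Camp, named after their values were seen, were kept and not called (limma adjusted p = 0.0544 to 0.494). Of the 8 kept, 7 had a positive change and Camp a negative one, at -0.35 ± 0.28 (SE). Neutrophil genes summed to 33.0 to 59.7 FPKM in AstroCSF1KO SCI and 16.7 to 36.0 FPKM in Control SCI, and to 13.1 to 20.7 FPKM in AstroCSF1KO uninjured and 9.23 to 23.0 FPKM in Control uninjured. Control SCI replicate 1, which stood apart, had the lowest neutrophil sum of the injured libraries, and it and replicate 4 also had the lowest endothelial sums of the injured libraries, at 46.5 and 41.55 FPKM. Of 8 genes of marrow precursors 1 was kept (Prtn3, -0.24 ± 0.18, limma adjusted p = 0.432; SE), and the whole list summed to 1.08 to 1.66 FPKM in AstroCSF1KO SCI and 0.119 to 1.48 FPKM in Control SCI, and to 1.29 to 1.99 FPKM in AstroCSF1KO uninjured and 0.217 to 1.43 FPKM in Control uninjured. All 8 endothelial genes were kept and 0 were called over both genotypes, with Cldn5 at 0.29 ± 0.51 and Flt1 at -0.01 ± 0.08 (SE, limma adjusted p = 0.789 and 0.955). The part of these cell types in the change of the 5 genes was not tested.

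**Figure D5:**
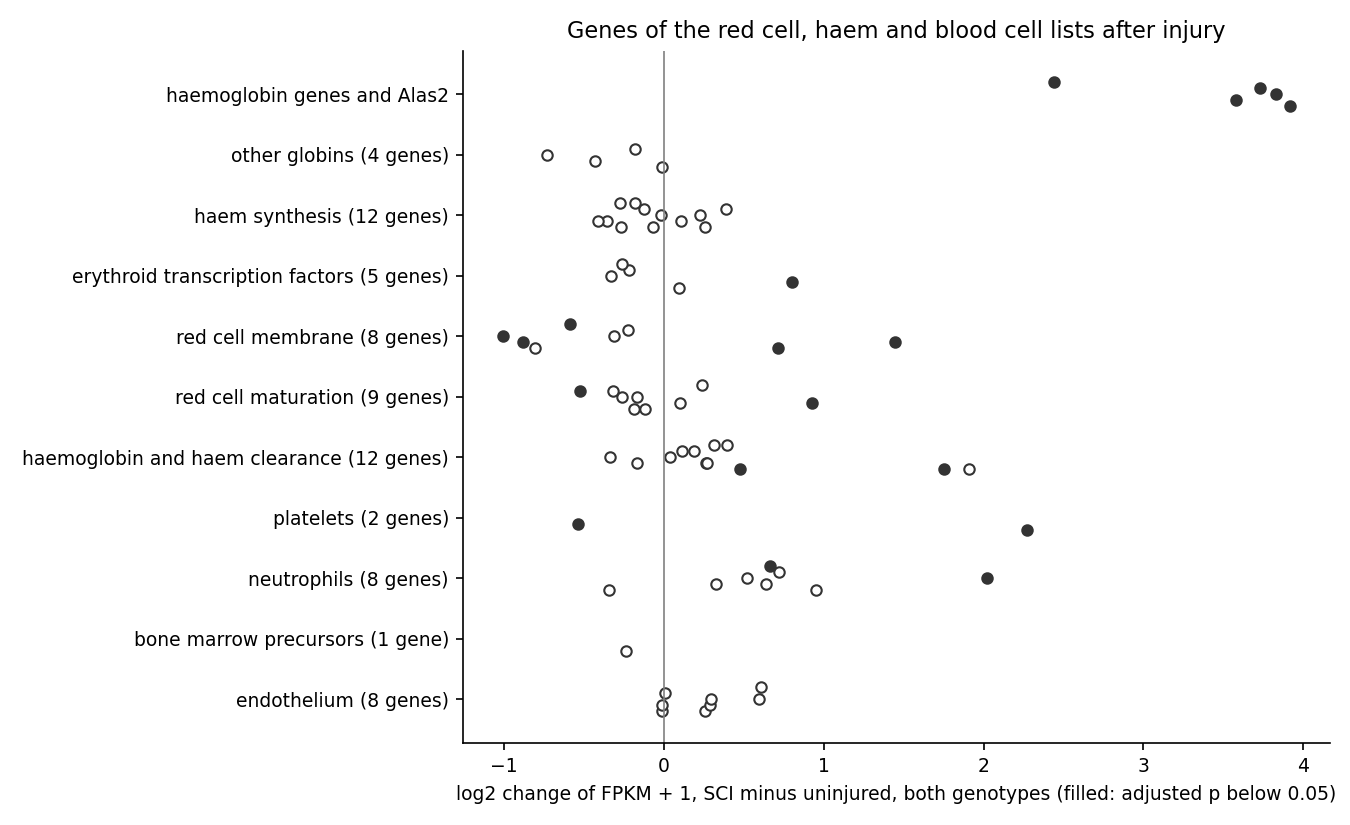
The log2 change of FPKM + 1 after injury over both genotypes (x axis) of every kept gene in each list (y axis), with filled circles for an adjusted p under 0.05. The 4 haemoglobin genes and Alas2 lie at 2.44 to 3.92, and the kept genes of the other lists lie between -1.01 and 2.27.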

How the data were processed

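Poly(A) RNA of 14 cord samples gave paired reads of about 150 bp, with strand not kept, per the labels' protocols. Per the submitters' processing notes, CASAVA 1.8 and HISAT2 with mm39 were used; which counting program and gene annotation followed is not given in the sources used here. Per the file headers, the authors deposited FPKM values with gene names, lengths and mm39 positions. FPKM was multiplied by gene length and divided by the library's smallest product, which recovered whole reads (100% of values above 0 whole within 0.01). The deposited FPKM already carry a normalization between libraries. Reads have no molecular identifiers, so a floor of 3 reads covers counting error only.

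Values were analysed as log2(FPKM + 1), a scale that understates changes of low genes such as Alas2. Genes at 1 FPKM or more in at least 3 libraries were kept (15155). Limma 3.58.1 in R 4.3.3, with an intensity trend, tested each pair of groups on its own libraries, two-sided, and injury over both genotypes and the interaction on all 14; Benjamini-Hochberg adjustment ran over all genes kept, and a gene was called at an adjusted p under 0.05. Exact permutation tests over libraries were run in Python 3.11.15, and sequences were aligned with Biopython 1.88; the fitting code was tested on simulated data. Comparisons that share a group share its libraries. The 5 genes and all lists were chosen with earlier results of these data known. Genes were named by rule: the 5; up to 4 called genes of a list with the smallest p in injury over both genotypes, or else up to 2 with the highest mean FPKM; and the 10 most like the summed globin RNA by each measure. Others are said to be chosen after their values were seen. A gene of the membrane list is not reported here.

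Whether replicate numbers pair libraries was checked by correlating same-numbered deviations from the group means across genes. In the control injury comparison the correlations were 0.616, 0.832 and 0.733, all above 0.1, so blocked values are printed there. The labels state no pairing, replicate 1 stands apart in both control groups, replicate 3 correlated more with another number (0.812), and Control SCI replicate 4 has no uninjured partner.

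RefSeq promoters were found for all 5 genes. Alternatives were a pseudocount of 0.1, no filter, scaling by total reads, voom, leaving out the 3 control libraries that stood apart or the 4 rich in rRNA reads, a replicate block, summed copies and each library left out in turn.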

Additional observations from a re-analysis of the deposited data

How the results depend on the processing

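Of 510 values of the 5 genes recomputed under the alternatives, 487 kept their direction and their side of the threshold, and none that was called changed sign. Injury changes stayed positive throughout, at 2.80 to 4.13 for Hba-a1 and 1.43 to 2.80 for Alas2 in AstroCSF1KO cords and at 3.95 to 5.62 and 2.75 to 4.92 in control cords. In control cords, where 158 genes and 0 of the 5 were called, the count of genes was 63 with no filter and 104 with voom; without the 3 libraries that stood apart it was 3624 with 4 of the 5, and with the replicate block 1030 with all 5. Leaving out 1 control library at a time gave 15 to 125 genes and 0 to 2 of the 5, the 2 without Control SCI replicate 4. Without the 4 libraries rich in rRNA reads, 1446 genes were called for injury in AstroCSF1KO cords (6943 with them), and 573 genes and 2 of the 5 over both genotypes. Over both genotypes 2516 genes were called, 7718 without the 3 control libraries, and 1841 to 3899 with 1 library left out, the most without Control uninjured replicate 1. With no filter, 15 genes were called between genotypes in uninjured cords and 3 in injured cords, none of the 5 among them. The cause of these shifts was not tested. Scaling by total reads gave 1768 higher and 609 lower genes over both genotypes, against 1506 and 1010, and moved the median change of all genes in control cords to 0.05, against -0.05. The replicate block changed no call of the 5 in the other comparisons, where at least 1 same-number correlation was below 0.1. Depth limits Alas2 (9 reads at the lowest), Hbb-bt and the erythroid factors most.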

Other observations

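Among the AstroCSF1KO SCI libraries, the pair in which Ddx3y exceeded Xist had 182 and 312 FPKM of Hba-a1, and the pair in which Xist exceeded Ddx3y had 121 and 135 FPKM. Both libraries of the second pair, replicates 3 and 4, were rich in rRNA reads, as was replicate 2 of the first pair, at 182 FPKM. Hbb-bs stood at 280.2 and 309.4 FPKM in the first pair and at 149 and 158 FPKM in the second, and Alas2 at 3.99 and 5.40 FPKM and at 2.76 and 2.93 FPKM. In Control SCI the library in which Xist exceeded Ddx3y had 58.6 FPKM of Hba-a1 and the other 3 had 198.5 to 1918 FPKM. That library is replicate 4, which stood apart. Its Hba-a2 (48.6 FPKM) and Alas2 (3.87 FPKM) lay within the range of the other 3, at 26.2 to 308.8 FPKM and 3.83 to 41.9 FPKM. In uninjured cords Hba-a1 stood at 26.8 FPKM in the AstroCSF1KO library with higher Xist and at 13.8 and 20.7 FPKM in the other 2, and at 8.64 and 19.5 FPKM in the control libraries with higher Xist and 10.9 FPKM in the other. These pairs were seen in the data and not tested, and the sexes are not balanced over the groups.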
